A study of Homo sapiens with 5 samples.

Results

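Regulators of G protein signalling (RGS proteins) were followed through 10 genes, RGS2, RGS3, RGS4, RGS5, RGS7, RGS10, RGS12, RGS16, RGS17 and RGS20, on 5 Affymetrix arrays of PC-3, a human line derived from a bone metastasis of prostate cancer. The set was chosen by measured values, because RGS4 was higher in spheroids and with both hairpins while RGS7 was lower with both hairpins, so the members' differences in those comparisons are given as a description, with no test. All 35 probe sets that carry 1 of these symbols alone were used, out of 41091 single-symbol probe sets for 19775 genes. The arrays held PC-3 cells from a spheroid culture, which are clusters grown in 3 dimensions (spheroid, 1 array), PC-3 cells grown flat (2D, 1 array), PC-3 cells with a short hairpin RNA against TRIB1 (shTRIB1-1 and shTRIB1-2, different hairpins, 1 array each) and PC-3 cells with a control hairpin against GFP (shGFP, 1 array). Per the labels every culture, the spheroid one included, was grown in dishes without treatment. Nothing is said of the vector, of clones or of separate cultures. The p-values given below rest on the spread between the 2 hairpin arrays, in which hairpin, culture and technical differences cannot be told apart. Spheroid, 2D and shGFP have no replicate, and the 2 arrays of different hairpins are the only pair that share a group in the labels.

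A G protein-coupled receptor switches on a G protein by loading its alpha subunit with GTP, and an RGS protein speeds the hydrolysis of that GTP, so the signal ends sooner. The R4 subfamily (RGS2, RGS3, RGS4, RGS5 and RGS16) acts on the Gi and Gq classes, with RGS2 favouring Gq. The R7 subfamily (RGS7) needs the beta subunit GNB5 as a partner, the R12 subfamily holds RGS10 and the large scaffold RGS12, and the RZ subfamily (RGS17 and RGS20) also acts on GNAZ. RGS4, RGS5 and RGS16 proteins are short-lived because the N-degron pathway destroys them through an N-terminal cysteine, and arrays measure only the messenger RNA.

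Of the 10 genes, 5 lie on chromosome 1, and RGS4 and RGS5 are next to each other there, with the kinetochore gene NUF2 on the far side of RGS5. RefSeq (GRCh38.p14) placed the most upstream RGS5 start and the NUF2 start on opposite strands with 218 bases between them. The bases before the most upstream starts are shown for the 4 members whose levels ranged most widely over the arrays, RGS4, RGS7, RGS5 and RGS2, and for RGS5 only those it shares with NUF2. They span chr1:163068621-163068870 (RGS4, plus strand), chr1:241357231-241357480 (RGS7, minus strand), chr1:192808789-192809038 (RGS2, plus strand) and chr1:163321736-163321953 (RGS5, minus strand), each ending at the base before the start. Capitals mark matches to letters searched on both strands: TTNNGNAA (C/EBP, the factors that TRIB1 brings to the ubiquitin ligase COP1), TGACGTCA (the cyclic AMP response element), TGANTCA (AP-1), TATAAA (the TATA box), GGGCGG (the GC box) and CACGTG (the E-box).
RGS4: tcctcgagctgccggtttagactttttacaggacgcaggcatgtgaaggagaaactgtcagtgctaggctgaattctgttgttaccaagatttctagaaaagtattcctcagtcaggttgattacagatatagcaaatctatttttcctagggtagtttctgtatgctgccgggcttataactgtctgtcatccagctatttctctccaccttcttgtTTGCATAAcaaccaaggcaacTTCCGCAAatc
RGS7: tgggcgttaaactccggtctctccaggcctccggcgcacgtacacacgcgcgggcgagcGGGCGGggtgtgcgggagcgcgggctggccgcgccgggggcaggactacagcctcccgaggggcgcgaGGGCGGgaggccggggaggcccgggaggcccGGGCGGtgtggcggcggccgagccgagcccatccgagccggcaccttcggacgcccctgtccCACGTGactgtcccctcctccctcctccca
RGS2: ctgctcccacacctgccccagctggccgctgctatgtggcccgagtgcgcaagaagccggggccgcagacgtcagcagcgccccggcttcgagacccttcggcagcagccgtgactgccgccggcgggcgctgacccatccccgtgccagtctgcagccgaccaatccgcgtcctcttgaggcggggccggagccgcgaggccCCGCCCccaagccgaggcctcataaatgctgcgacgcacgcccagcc
RGS5: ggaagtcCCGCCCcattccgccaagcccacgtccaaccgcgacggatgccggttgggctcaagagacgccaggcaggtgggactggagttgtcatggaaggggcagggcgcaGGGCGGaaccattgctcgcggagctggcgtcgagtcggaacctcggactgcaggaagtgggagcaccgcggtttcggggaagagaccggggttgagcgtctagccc
The RGS4 sequence held 2 matches to the C/EBP letters, at 32 to 25 and 11 to 4 bases before the start, and none to the GC box. The C/EBP letters occurred in 33.2% of 35116 RefSeq windows of 250 bases, so a match to them is common. RGS4 has 4 starts in RefSeq, and 3 of their windows held these letters. RGS7 held 3 GC boxes and 1 E-box, RGS2 held 1 GC box and RGS5 held 2. The GC box occurred in 42.6% of all windows and the E-box in 6.34%. These are shares of windows with at least 1 match, not numbers of matches. The windows are 250 bases long, whereas the RGS5 stretch has 218. G and C made up 42.8% of the RGS4 bases, 77.6% of the RGS7 bases, 72.8% of the RGS2 bases and 67% of the RGS5 bases, against a median of 58% over all windows. A match of letters is not evidence of binding.

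The level of a probe set below is the log2 of its RMA intensity. A level of 6 is an intensity of 64, and values below it are close to background. Of the 35 probe sets, 14 reached 6 on any array and 7 reached it on all 5. RGS12, with 10 probe sets, and RGS16, with 3, stayed below 6 on every array, between 2.62 and 5.98 for RGS12 and between 3.24 and 5.60 for RGS16. These genes give little information, and the other 8 had at least 1 probe set at 6 or more. The probe set highest on average over the 5 arrays stands for its gene. Epithelial markers were present, as the label of the cells requires: KRT8, KRT18, KRT19, EPCAM and CDH1 were between 9.39 and 13.19 on all arrays. The 3 leukocyte markers with a probe set lay between 3.58 and 5.43. TRIB1 was at 11.91 on the shTRIB1-1 array and 11.76 on the shTRIB1-2 array, against 11.97 on the shGFP array, so this messenger RNA was not clearly depleted, and hairpin arrays are called by their labels. The ratio of 5′ to 3′ actin signal was 0.131 on the spheroid array against 0.184 on the 2D array. It was 0.445 and 0.442 on the shTRIB1-1 and shTRIB1-2 arrays against 0.436 on the shGFP array. The same ratio for GAPDH was 0.763 on the spheroid array against 0.895 on the 2D array, and 0.935 and 0.929 on the shTRIB1-1 and shTRIB1-2 arrays against 0.944 on the shGFP array. The spheroid array was thus the lowest of the 5 by both ratios. By actin the 2D array also lay well below the shTRIB1 and shGFP arrays, so comparisons of those arrays with 2D cross this split. The part of these ratios in the differences was not tested.

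**Figure D1:**
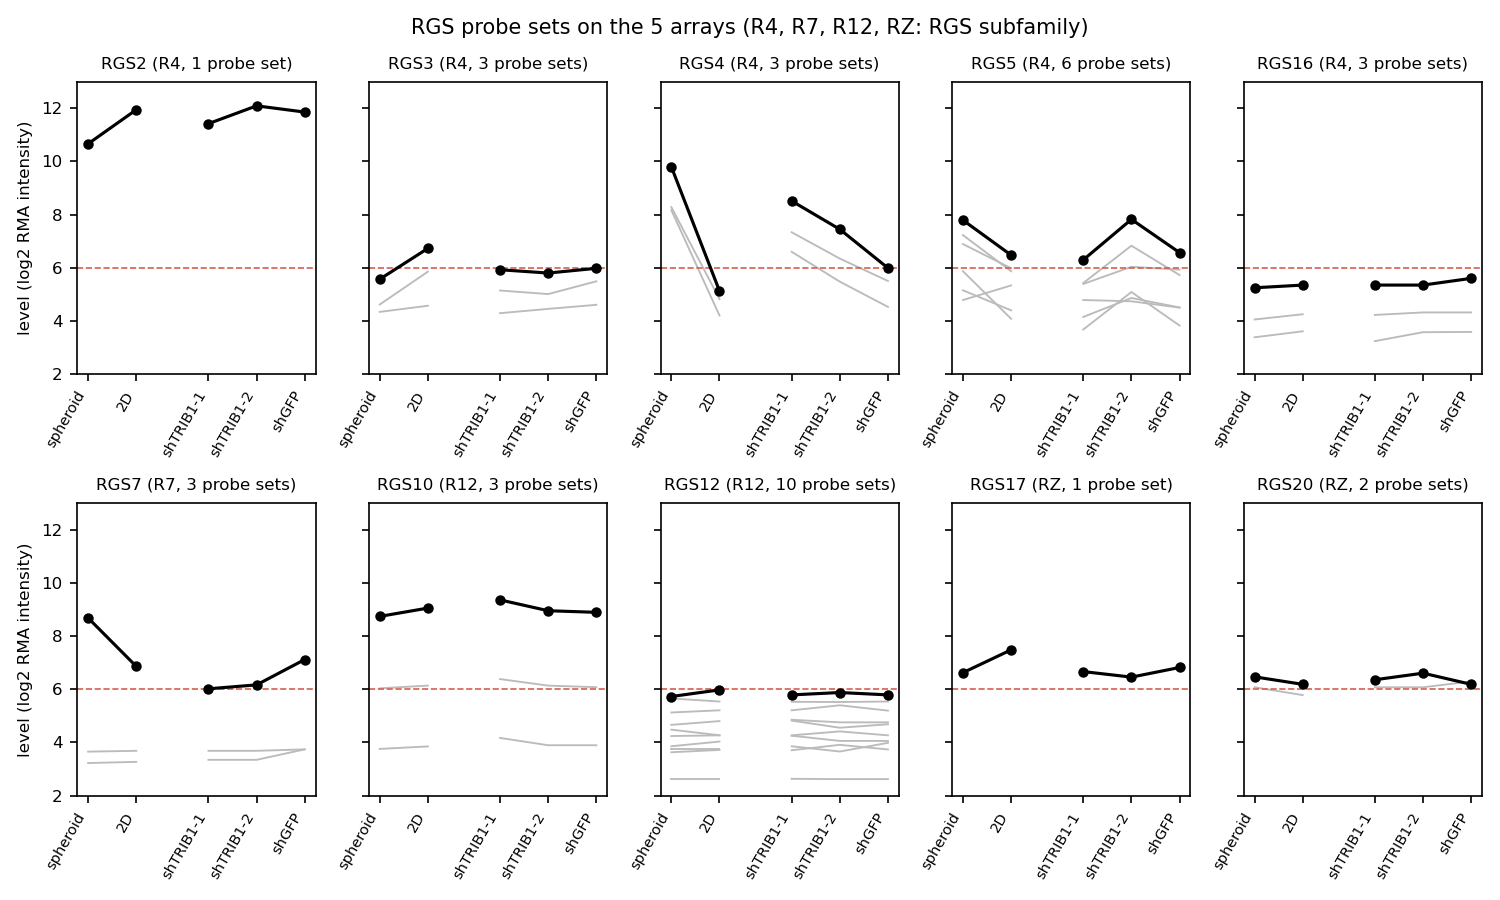
Level (log2 RMA intensity, vertical axis) of every RGS probe set on the 5 arrays (horizontal axis), 1 panel per gene. Black points and lines are the probe set that stands for the gene, grey lines are its other probe sets, and the dashed line marks a level of 6. RGS4 runs between 5.13 and 9.79, RGS7 between 6.02 and 8.68, and RGS12 and RGS16 stay below 6.

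RGS4 had the widest range of the 10 genes. RGS4 was at 9.79 on the spheroid array, against 5.13 on the 2D array. On the hairpin arrays it was at 8.51 with shTRIB1-1 and 7.44 with shTRIB1-2, against 5.99 with shGFP. The order of arrays was thus spheroid, shTRIB1-1, shTRIB1-2, shGFP and 2D, and both control arrays lay below a level of 6. The spheroid array was higher than 2D by 4.67 (25.4-fold), rank 5 of 10570 genes, and with the 2D value raised to 6 the difference was 3.79. The hairpin arrays differed from shGFP by 2.52 and 1.45, a mean of 1.99 ± 0.75 (SD, n = 2), rank 7 of 10522 genes. The SD is the spread between the hairpins and leaves out that of the lone shGFP array. Shared by both hairpins was the direction, while the hairpins differed from each other by 1.07.

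The other RGS4 probe sets showed the same order with lower values. Probe set 204339_s_at was at 8.28 on the spheroid array and 4.82 on the 2D array, and 204338_s_at at 8.16 and 4.20. With shTRIB1-1, shTRIB1-2 and shGFP, 204339_s_at was at 7.33, 6.34 and 5.50, and 204338_s_at at 6.60, 5.48 and 4.53. Over the 3 probe sets the spheroid difference ran between 3.46 and 4.67 and the mean hairpin difference between 1.34 and 1.99. On shTRIB1-2, 204339_s_at and 204338_s_at differed from shGFP by 0.84 and 0.95, just short of 2-fold. Probe sets of 1 gene share their RNA, so they are not replicates.

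RGS7 was higher in spheroids and lower with both hairpins. Its level was 8.68 on the spheroid array, against 6.86 on the 2D array, a difference of 1.82 (3.53-fold). It was at 6.02 with shTRIB1-1 and 6.16 with shTRIB1-2, against 7.11 with shGFP. Relative to shGFP it differed by -1.10 and -0.95, which average -1.03 ± 0.10 (SD, n = 2), rank 33 from the lowest of 10522 genes. The spheroid array was thus highest and both hairpin arrays lowest, with 2D and shGFP 0.26 apart between them. All of this rests on 1 probe set, 206290_s_at. The other 2 RGS7 probe sets lay between 3.22 and 3.74 on all arrays, and their spheroid differences were -0.04 and -0.03. GNB5, the beta subunit that stabilises RGS7, was at 7.56 on the spheroid array against 7.82 on the 2D array. It was at 6.70 with shTRIB1-1 and 7.42 with shTRIB1-2, against 7.37 with shGFP, so it was lower on the shTRIB1-1 array and close to shGFP on the other. The membrane anchors RGS7BP and RGS9BP and the receptor GPR158, which binds RGS7, were below 3.9 on every array.

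RGS5, known as a marker of pericytes, was high on the spheroid and shTRIB1-2 arrays. It was at 7.79 on the spheroid array against 6.47 on the 2D array, a difference of 1.31. With shTRIB1-1 it was at 6.29 and with shTRIB1-2 at 7.82, against 6.57 with shGFP. The hairpins therefore went opposite ways, by -0.27 and 1.25, with a mean of 0.49 ± 1.08 (SD, n = 2), which is smaller than their spread. Of the 6 RGS5 probe sets 5 were higher in the spheroid array, by 0.75 to 1.79, and 1 (1558785_a_at) was lower by 0.55. Only 3 of the 6 reached a level of 6 on any array, and these were higher by 0.91 to 1.36. The remaining probe sets were below 6, close to background, on every array. The 5 that were higher in the spheroid array were lower on the shTRIB1-1 array than on shGFP and higher on the shTRIB1-2 array. RGS4 and RGS5, although adjacent, thus differed in which hairpin array was higher, RGS4 by 1.07 in shTRIB1-1 over shTRIB1-2 and RGS5 by -1.52. NUF2, which starts 218 bases from RGS5 on the other strand, was at 6.04 in the spheroid array against 9.07 in 2D, a difference of -3.04 in the opposite direction from RGS5. With shTRIB1-1 and shTRIB1-2 NUF2 differed from shGFP by -0.41 and -0.54, so of the hairpins only shTRIB1-2 was opposite to RGS5. RefSeq also places an antisense gene, RGS5-AS1, within RGS5.

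Markers of other cell types were compared because RGS5 marks pericytes. The pericyte and fibroblast marker PDGFRB was at 5.04 on the spheroid array against 4.95 on the 2D array. It was at 4.87 with shTRIB1-1 and 4.97 with shTRIB1-2, against 4.82 with shGFP. COL1A2, DCN and LUM were below 6 on every array, whereas COL1A1 was at 8.53 in the spheroid array against 7.06 in 2D. COL1A1 was at 8.30 and 8.41 with the hairpins against 6.95 with shGFP. The summed level of the 5 fibroblast markers was 26.78 in the spheroid array and 24.93 in 2D, and 26.29 and 26.50 with shTRIB1-1 and shTRIB1-2 against 24.94 with shGFP. Of 3 endothelial markers, CDH5 and VWF were below 6 on all arrays, and PECAM1 was at 9.53 in the spheroid array against 7.57 in 2D. The summed endothelial level was 17.93 in the spheroid array and 16.17 in 2D, and 14.39 and 14.92 with shTRIB1-1 and shTRIB1-2 against 15.52 with shGFP. The part of COL1A1 and PECAM1 in the RGS5 difference was not tested.

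**Figure D2:**
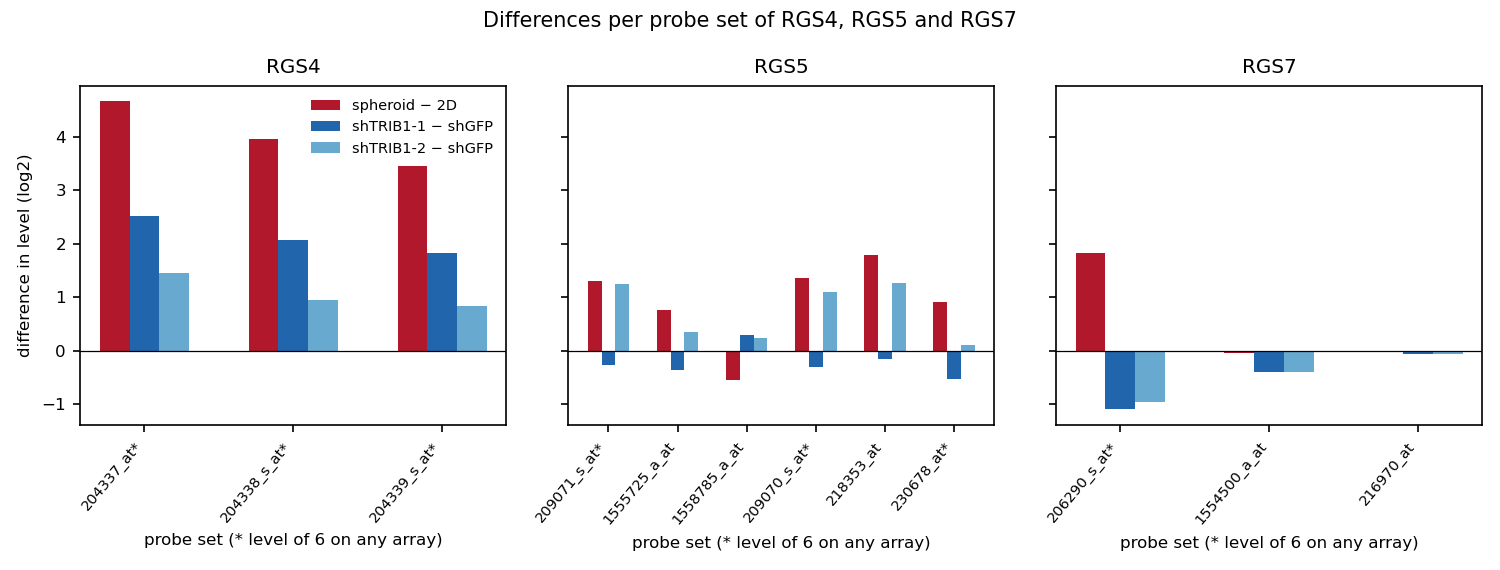
Difference in level (log2, vertical axis) of each probe set (horizontal axis) of RGS4, RGS5 and RGS7 for spheroid minus 2D (red), shTRIB1-1 minus shGFP (dark blue) and shTRIB1-2 minus shGFP (light blue). All 9 differences of RGS4 are above 0, the RGS5 differences for shTRIB1-1 and shTRIB1-2 lie on opposite sides of 0 in 5 of 6 probe sets, and only 206290_s_at of RGS7 differs by more than 0.5.

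RGS2, the R4 member that favours Gq, was lower in spheroids. It was at 10.66 on the spheroid array against 11.94 on the 2D array, a difference of -1.28 (2.43-fold). With shTRIB1-1 it was at 11.42 and with shTRIB1-2 at 12.08, against 11.85 with shGFP. The spheroid array was the lowest of the 5, and the hairpin differences had opposite signs (-0.44 and 0.23). RGS3, which has short and long forms that act on Gi and Gq, was at 5.57 on the spheroid array against 6.73 on the 2D array. Its spheroid difference was -1.16, and with the spheroid value raised to 6 it was -0.73. Only the 2D array held RGS3 above 6, and the hairpin and shGFP arrays lay between 5.80 and 5.98. All 3 RGS3 probe sets were lower in spheroid than in 2D, by 0.23 to 1.23. Both ends of that range come from 232223_at and 220300_at, which were below 6 on every array. RGS16, an R4 member induced by many stimuli in other cells, was at 5.25 on the spheroid array against 5.35 on the 2D array. It was at 5.35 on both hairpin arrays against 5.60 on shGFP. No RGS16 difference reached 0.5, all of them at levels near background.

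Among the R12 and RZ genes past the level filter none differed by 2-fold in either comparison. RGS10, a small R12 member known in immune cells and neurons, was at 8.74 on the spheroid array against 9.05 on the 2D array. It was at 9.36 with shTRIB1-1 and 8.95 with shTRIB1-2, against 8.89 with shGFP, and its whole range over the arrays was 0.62. RGS17, an RZ member that has been studied in lung and prostate cancer, was at 6.62 on the spheroid array against 7.48 on the 2D array, a difference of -0.86. It was at 6.66 and 6.45 with shTRIB1-1 and shTRIB1-2 against 6.82 with shGFP, so the 2D array alone stood above 7. RGS20, the other RZ member, was at 6.46 on the spheroid array against 6.18 on the 2D array. It was at 6.36 and 6.60 with shTRIB1-1 and shTRIB1-2 against 6.18 with shGFP, and its other probe set differed by -0.22 with both hairpins, so the RGS20 probe sets disagree there.

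The comparison of spheroid with 2D set 1 array of each culture side by side, and describes which genes differed between these arrays. Of the 10 members, 8 passed a level of 6 on either array. A spheroid level 2-fold or more above 2D was seen for 3 members (RGS4, RGS7 and RGS5), beside 5.05% of all 10570 genes. A level 2-fold or more below 2D was seen for 2 (RGS2 and RGS3), beside 5.23% of all genes. Since RGS4 was selected on this comparison, nothing is read from the count. The median of the 8 members was -0.02, close to the -0.01 of all genes, because 4 were higher and 4 lower. By probe set, 6 of the 14 past the filter were at least 2-fold higher, against 5.52% of all probe sets, and 2 were lower, against 4.93%. All 3 RGS4 probe sets are among the 6, so nothing is read from this count either. The higher and lower genes were mixed within the R4 subfamily, with RGS4 and RGS5 higher and RGS2 and RGS3 lower. Where a gene took the median of all its probe sets, RGS4 (3.46) and RGS2 were still called. RGS3 differed by -1.23 but no longer reached a level of 6, and RGS5 differed by 0.78. Called without the _s_at and _x_at probe sets were RGS4, RGS2 and RGS3. RGS7 differed by -0.03 in both settings, in which dim probe sets stand for it.

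The TRIB1 hairpins were compared with shGFP to find genes that differ where TRIB1 is targeted, although TRIB1 itself differed from shGFP by only -0.06 and -0.20 on these arrays. Of the 7 members past the level filter, RGS4 was at least 2-fold higher on both hairpin arrays, which 0.361% of 10522 genes were, and none was 2-fold lower on both, which 0.0855% of genes were (0.447% in either direction). RGS7 came closest on the lower side, since it passed 2-fold with shTRIB1-1 (as 1.86% of genes did) and came just short of it with shTRIB1-2, as 0.817% of genes passed there. RGS5 passed 2-fold with shTRIB1-2 alone, as 1.34% of genes did. The members' median was 0.26 against -0.03 for all genes, with 4 higher and 3 lower by the mean of the hairpins. These shares were fixed in part by the choice of RGS4 and RGS7. With the median over all probe sets no member was called, RGS4 averaging 1.34 and RGS7 -0.05. Fitted across all genes, limma called 0 of 10522 (0.00%) at an adjusted p under 0.05, with a smallest adjusted p of 0.951 and 356 genes at an unadjusted p under 0.05. The fit set 2 arrays against 1 and took its spread from the 2 different hairpins alone, so 0 calls do not show that no gene differs.

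**Figure D3:**
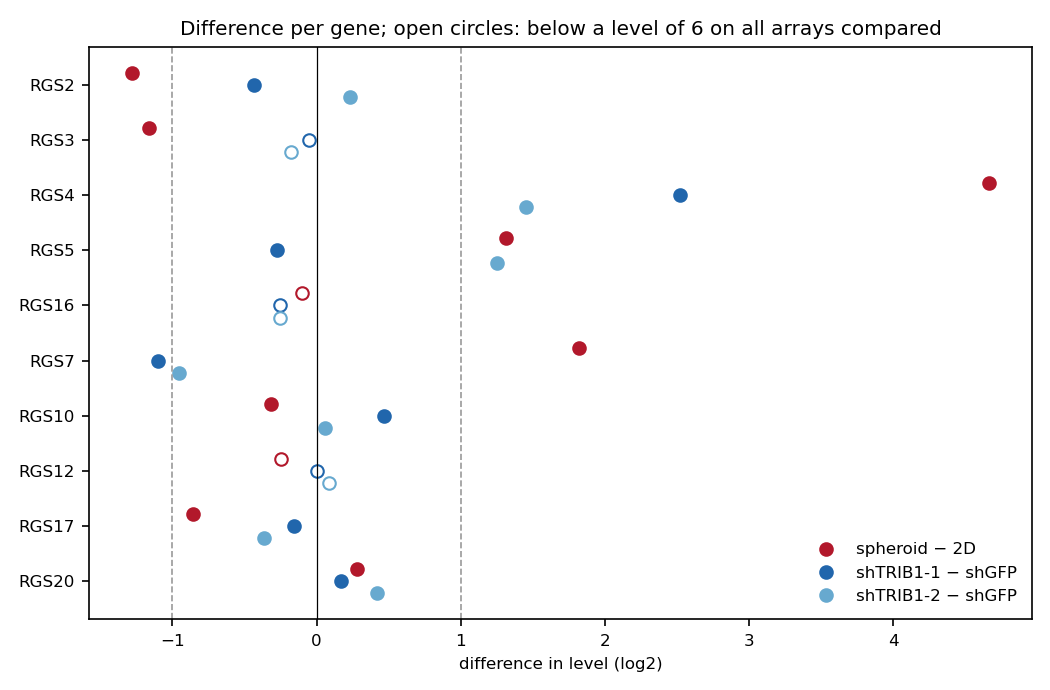
Difference in level (log2, horizontal axis) of each RGS gene (rows) for spheroid minus 2D (red), shTRIB1-1 minus shGFP (dark blue) and shTRIB1-2 minus shGFP (light blue). Dashed lines mark 2-fold, and open circles are genes below a level of 6 on every array compared. RGS4 is the 1 gene beyond 2-fold to the right in all 3 differences, and RGS7 lies right of 2-fold for spheroid and near -1 for both hairpins.

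The shGFP and 2D arrays were set side by side to show how far the controls differ for these genes. None of the 7 members past the filter differed by 2-fold, where 4.25% of 10450 genes did, 2.13% higher and 2.11% lower. RGS3 differed by -0.75 (5.98 with shGFP, 6.73 in 2D) and RGS17 by -0.66, and the others by less than 0.3. RGS4, below 6 on both, was at 5.99 with shGFP and 5.13 in 2D. Against 2D alone the mean hairpin difference of RGS4 was therefore 2.85 and that of RGS7 -0.77. Between the hairpin arrays themselves, RGS4 was at least 2-fold higher with shTRIB1-1 than with shTRIB1-2, as 2.04% of 10412 genes were, and RGS5 at least 2-fold lower, as 3.07% were (5.11% in either direction).

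The genes whose levels followed RGS4 and RGS7 most closely were found by the root mean square distance over the 5 arrays, after each gene was centred on its mean, among 10843 genes at a level of 6 on any array. Closest to RGS4 was AQP3, a water and glycerol channel, at a distance of 0.553. AQP3 was at 10.37 in the spheroid array against 5.38 in 2D, and at 10.04 and 7.37 with shTRIB1-1 and shTRIB1-2 against 6.24 with shGFP. The noncoding RNA NRAD1 (0.690) and the small GTPase ARL14 (0.734) followed. NRAD1 was at 7.42 in the spheroid array against 4.38 in 2D and ARL14 at 8.73 against 5.41. ARL14 departed from RGS4 with shTRIB1-2, at 6.65 against 6.91 with shGFP.
Closest to RGS7 was SYBU, an adaptor between kinesin and vesicles, at a distance of 0.230. SYBU was at 9.61 in the spheroid array against 8.27 in 2D, and at 7.52 and 7.13 with shTRIB1-1 and shTRIB1-2 against 8.37 with shGFP. The mitochondrial thymidine kinase TK2 (0.287) and the glutamate receptor subunit partner CNIH3 (0.293) were next, and their mean hairpin differences were smaller, at -0.44 and -0.35.
Of the other neighbours of RGS4, HSD17B7 was at 9.84 in the spheroid array against 10.68 in 2D, and CCDC190 was below 4 on every array, at 3.96 in the spheroid array against 2.58 in 2D. Near RGS7, the actin nucleator FMN2 was at 4.56 in the spheroid array against 5.78 in 2D. FMN2 was at 7.14 and 7.46 with shTRIB1-1 and shTRIB1-2 against 6.36 with shGFP, which is opposite to RGS7. The spheroid difference of FMN2 was also opposite to that of RGS7, but both of those FMN2 levels were below 6, close to background. KMO was below 6 on every array.

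The rest of the G protein machinery was described through lists of 111 genes, of which 102 had a probe set. Of the 11 other RGS genes 10 had a probe set, and RGS19 alone reached a level of 6. RGS19, an RZ member, was at 9.01 on the spheroid array against 9.03 on the 2D array. It was at 8.02 with shTRIB1-1 and 9.23 with shTRIB1-2 against 9.07 with shGFP, so the shTRIB1-1 array stood alone. Of the 67 listed genes past the filter in spheroid against 2D, 5 lay 2-fold or more above 2D and 3 below, 11.9% in all, beside 10.3% of all genes. Their median was -0.08.

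The G alpha subunits, the substrates of RGS proteins, included 10 past the filter, 2 of them 2-fold or more above 2D. GNAI1, an inhibitory subunit, was at 9.16 in the spheroid array against 7.99 in 2D, and GNAL, a stimulatory subunit of the olfactory type, at 7.24 against 5.70. The other 8, among them GNAI2, GNAI3, GNAQ, GNA11, GNAS and GNAZ, differed by less than 0.5. With the hairpins 9 of the 10 were higher by the mean, beside 43.8% of all genes, with a median of 0.13 and none 2-fold higher on both arrays. For GNAI1, GNAI3, GNAQ, GNA12 and GNA13 the hairpins had opposite signs. GNAI1 was at 8.19 with shTRIB1-1 and 9.35 with shTRIB1-2 against 8.56 with shGFP. GNAI1 was thus, like RGS5, high on the spheroid and shTRIB1-2 arrays.
Of 10 beta and gamma subunits none differed 2-fold in either comparison. GNG11 differed by -0.73 in spheroid and by -0.52 as the hairpin mean, and GNG2 by 0.25 and 0.83. Of the effectors, 8 passed the filter and the adenylyl cyclase ADCY1 was 2-fold higher in spheroid (1.04). ADCY3 differed by -0.92 there and the phospholipase PLCB4 by -0.78. With the hairpins PLCB4 differed by -0.85 and -0.45. The 4 receptor kinases and arrestins past the filter differed by less than 0.3 in both comparisons.

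The receptors that feed these pathways included 14 past the filter in spheroid against 2D, with a median of -0.24, 4 higher and 10 lower. Over all genes the median was -0.01, with 47.3% higher and 50.9% lower, and the difference was not tested. Past 2-fold, 1 receptor was higher and 2 were lower, beside 5.05% and 5.23% of all genes. BDKRB2, a bradykinin receptor that couples to Gq, was at 6.22 in the spheroid array against 5.18 in 2D. P2RY2, a receptor for ATP and UTP, was at 5.55 against 7.05, and the sphingosine phosphate receptor S1PR3 at 7.51 against 8.70. BDKRB2 was also higher with both hairpins, at 6.35 and 6.25 against 5.58 with shGFP. CHRM3, a muscarinic receptor, was at 4.04 with shTRIB1-1 and 7.66 with shTRIB1-2 against 6.59 with shGFP, and therefore went opposite ways. Among the other G protein regulators GPSM2, which orients the mitotic spindle, was at 7.30 in the spheroid array against 9.15 in 2D.
Cyclic AMP-responsive genes had a median of 0.75 over 6 genes in spheroid against 2D, 5 of them higher, beside 47.3% of all genes. The same list had a median of 0.41 with 5 of 6 higher in shGFP against 2D, where 48.9% of all genes were higher. The phosphodiesterase PDE4B was at 7.85 in the spheroid array against 5.98 in 2D, at 8.24 with shTRIB1-1 and at 5.63 with shTRIB1-2 against 6.29 with shGFP. The kinase SIK1 was higher with both hairpins, at 9.58 and 8.94 against 8.31 with shGFP.
Of the 8 N-degron genes, which set the lifetime of RGS4, RGS5 and RGS16 proteins, none differed 2-fold in either comparison. The aminopeptidase METAP1, which exposes the cysteine, was at 9.11 in the spheroid array against 9.91 in 2D, and the ubiquitin ligase UBR4 at 7.78 against 6.83. The arginyltransferase ATE1 was at 7.70 with shTRIB1-1 and 8.57 with shTRIB1-2 against 8.68 with shGFP. Of the 67 listed genes in the hairpin comparison none was 2-fold higher or lower on both arrays, where 0.447% of all genes were.

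**Figure D4:**
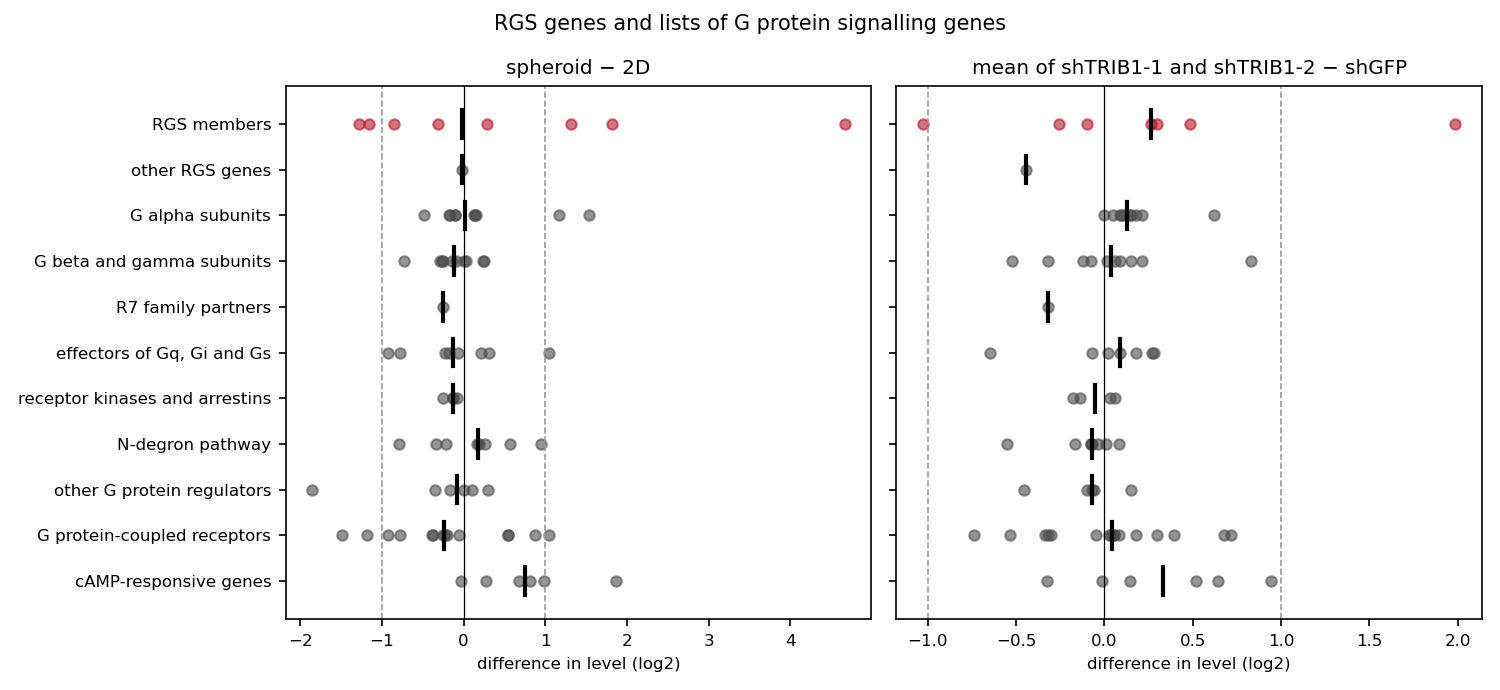
Difference in level (log2, horizontal axes) of genes at a level of 6 or more, by list (rows), for spheroid minus 2D (left) and for the mean of shTRIB1-1 and shTRIB1-2 minus shGFP (right). Points are genes, black bars are list medians and dashed lines mark 2-fold. The RGS genes (red) spread between -1.28 and 4.67 on the left and between -1.03 and 1.99 on the right.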

How the data were processed

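Each deposited value is the intensity of a probe set, made by the authors with RMA, per the submitters' processing notes. RMA corrects background, normalizes by quantiles and summarises probes. The values are on a linear scale, and neither the version of RMA nor the step back from log2 is given in the sources used here. Median intensities lay between 32.97 and 33.36. Arrays have no sequencing depth, and their number limits precision.

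Log2 was taken with no pseudocount. Of 54675 probe sets, 41091 carried 1 gene symbol in the platform annotation, 1801 carried several, 11721 carried none and 62 were controls. A gene took its probe set with the highest mean and entered a comparison at a level of 6 on any compared array. Differences of 1 (2-fold) were counted, on both hairpin arrays for the hairpins. Limma 3.58.1 (R 4.3.3) was run on the hairpin and shGFP arrays with a trend on intensity, with p-values adjusted by Benjamini-Hochberg. It was also run on simulated data in which all genes shared 1 SD, which does not show how the fit performs on these arrays. Members, gene lists and rules were chosen with earlier results of these data known. From each list, the 3 largest differences per comparison and all 2-fold genes could be named. RefSeq start windows matched 9 of the 10 members. Alternatives changed the probe set rule, the level filter, the scale and the reference array.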

Additional observations from a re-analysis of the deposited data

How the results depend on the processing

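The number of RGS genes at least 2-fold apart in spheroid against 2D was 5, and it was 2 with the median over all probe sets (RGS3, at -1.23, then missed the level filter), 3 without _s_at and _x_at probe sets and 3 at a level filter of 8. It was 4 with levels under 6 set to 6, with 16 added to each intensity and against the mean of 2D and shGFP, and 5 with no level filter. RGS7 reversed to -0.031 with the median over probe sets and without _s_at and _x_at probe sets, and the probe sets that then stand for it are below 4 on every array. In the hairpin comparison the number was 1 (RGS4) and became 0 with the median over probe sets. With 1 hairpin array left out it was 2 either way (lowest and highest 2), RGS4 with RGS5 for shTRIB1-2 and RGS4 with RGS7 for shTRIB1-1. RGS4 then differed by 1.45 or 2.52. Between the hairpin arrays the number was 2, and it was 0 with the median over probe sets, 1 without _s_at and _x_at probe sets and 1 at a filter of 8. In shGFP against 2D it stayed 0 under the 6 alternatives run. Over all genes, leaving hairpin arrays in, the counts ranged between 330 and 620 higher and 399 and 585 lower for spheroid against 2D, and between 20 and 236 higher and 4 and 238 lower for the hairpins, the highest against 2D alone. For the other comparisons they ranged between 145 and 246 and between 127 and 246 (shGFP against 2D), and between 143 and 223 and between 182 and 366 (shTRIB1-1 against shTRIB1-2). Limma was also run under 4 alternatives, and its calls did not change. Of 193 single-gene values under alternatives, 168 moved by less than 0.34, the SD between the hairpin arrays over genes. Part of these could not move, because a changed level filter alters only which genes enter. RGS2 and RGS17, with 1 probe set each, also kept their values under both probe set rules. Another 23 moved by more, and 2, those of RGS7, turned a 2-fold difference to the other sign. The sign also changed for 6 values under 2-fold, of RGS2, RGS5 and RGS20, among them RGS5 with the hairpins (-0.21 without _s_at and _x_at probe sets, -0.27 with shTRIB1-1 alone). No paired analysis was possible because the labels give nothing that pairs the arrays.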

Other observations

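Several listed G protein signalling genes differed between the hairpin lines. Of 66 that reached a level of 6, 3 lay 2-fold or more above and 5 below with shTRIB1-1 relative to shTRIB1-2, 12.1% beside 5.11% of all genes, and the difference between these shares was not tested. The muscarinic receptor CHRM3 differed by -3.62 and the Gq subunit GNAQ by -1.79 (4.61 with shTRIB1-1, 6.39 with shTRIB1-2, and 5.41 with shGFP). The lysophosphatidic acid receptor LPAR3 was at 8.46 and 9.78 on the same arrays, against 9.42 with shGFP. In the other direction PDE4B differed by 2.62 and S1PR3 by 1.60, at 9.80 and 8.20 against 8.32 with shGFP.

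The control arrays also differed for some of these genes. The phosphatase DUSP1 was at 11.21 with shGFP against 7.93 in 2D, a difference of 3.28, and the oxytocin receptor OXTR at 7.25 against 5.93. The G protein subunits GNAQ and GNG2 differed by -1.66 and -1.33 between shGFP and 2D. Of 65 listed genes, 2 lay 2-fold or more above 2D and 2 below, 6.15% beside 4.25% of all genes.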
